A study of Saccharomyces cerevisiae with 4 samples.

Results

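The genes described here are SPG1, SPG3, SPG4 and SPG5 of budding yeast (Saccharomyces cerevisiae), named as stationary phase genes, together with SPS100 and YGP1, which encode related secreted glycoproteins. Members were chosen by gene symbol, with earlier results of the same comparison known, among them the large differences of SPG4 and SPS100. All 6 were on the array, each with 1 probe set that carries no mark of sharing with other transcripts, of 5449 S. cerevisiae genes in all. No filter on low values was used, so none was left out. Cultures of the wild-type strain W1588-4c grew in YPD, a rich glucose medium, to log phase at an OD600 of 0.6 to 0.8. One group received 100 µM ebselen, an organic selenium compound known to modify thiol groups, for 3 h (2 arrays), and the other received DMSO, the solvent of the drug (2 arrays). The labels call the 2 arrays of each group biological replicates and do not say whether they came from separate cultures, so p-values measure the spread between these arrays. The sample records give an exposure time for ebselen only, and the sources used here do not state the cell density at harvest.

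Yeast that exhausts its glucose first slows and switches to respiration, a step called the diauxic shift, and then stops dividing in stationary phase. Cells in that state build a thicker wall, become resistant to heat and keep alive on stored carbohydrate. Strains without SPG1, SPG3, SPG4 or SPG5 are known to survive high temperature poorly once in stationary phase, which gave these genes their name. Spg5 is also known to bind the proteasome in stationary phase. Sps100 contributes to the maturation of the spore wall late in sporulation. Ygp1, its relative, is a secreted glycoprotein made when nutrients run short.

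In the arrays labelled ebselen, SPG4 and SPS100 were more than 20-fold lower than in DMSO, whereas YGP1, SPG1 and SPG5 were lower by 1.27-fold to 1.57-fold and SPG3 was 1.38-fold higher. The set therefore spanned a log2 difference from −4.62 to 0.46, with a median of −0.61, against a median of −0.03 over all genes. For all 6 genes the ebselen arrays did not overlap the DMSO arrays, which held for 86.6% of all genes. In 5 members the ebselen arrays were the lower ones (46.1% of all genes) and in 1 the higher ones (40.5%). In limma with Benjamini-Hochberg adjustment at a threshold of 0.05, 5 of the 6 were called lower, against 38.8% of all genes, and 1 was called higher, against 33.0%. The choice of members used this comparison, so these counts are a description and no p-values are given for them. Values are log2 expression relative to each gene's own median over the 4 arrays, which makes differences comparable between genes but not levels. In a gene with 1 probe set whose groups do not overlap, that centring forces the inner arrays of the groups to mirror each other around 0. It also forces the groups to take opposite signs, so the distance between them is what carries information. In RNA from whole cultures, fewer cells expressing a gene and less RNA per cell cannot be told apart.

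**Figure D1:**
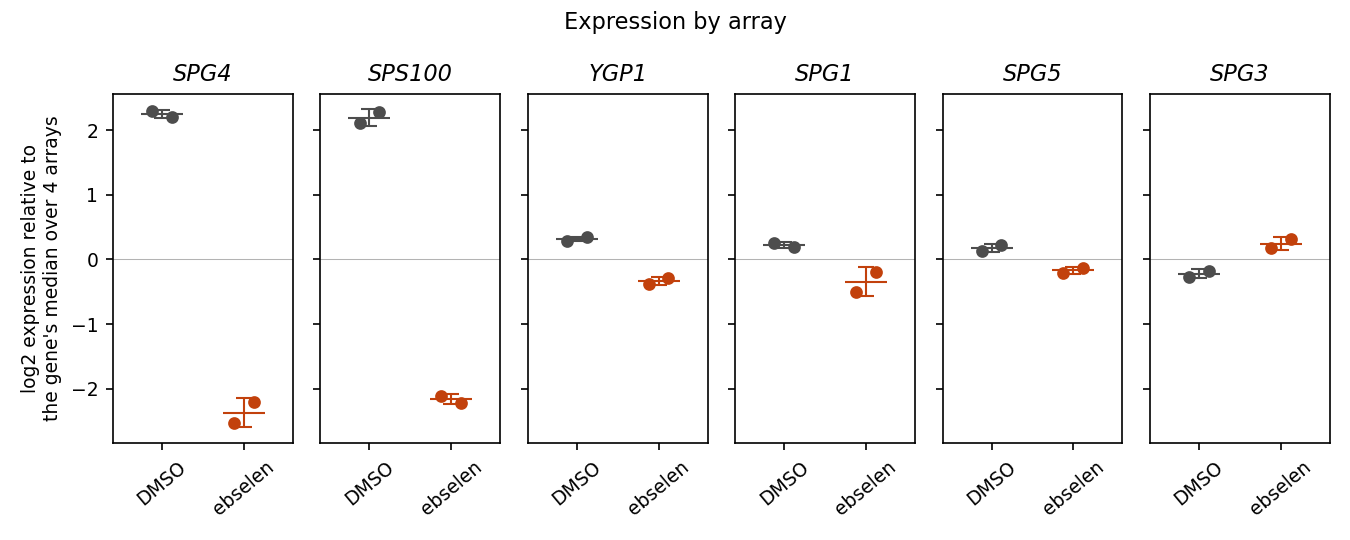
Log2 expression relative to the gene's median over the 4 arrays (y axis) for each of the 6 genes in DMSO (grey) and ebselen (orange). Points are single arrays, horizontal bars the group mean and error bars the SD (n = 2 arrays per group). SPG4 and SPS100 lie above 2 in DMSO and below −2 in ebselen, while the other 4 genes stay between −0.50 and 0.34.

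SPG4 (YMR107W), whose product is needed to survive heat in stationary phase, had log2 values of 2.29 and 2.21 in the DMSO arrays and −2.53 and −2.21 in the ebselen arrays. Both DMSO arrays were high, both ebselen arrays were low, and the groups lay far apart. The group means were 2.25 ± 0.060 in DMSO and −2.37 ± 0.23 in ebselen (SD, n = 2 each), a log2 difference of −4.62 ± 0.11 (limma's moderated standard error, SE) or 24.6-fold. This was the fourth largest fall of the 5449 genes, with rank 4. Above it stood YDL218W, a reading frame of unknown function (−5.24 ± 0.12), SRX1, the sulfiredoxin that repairs peroxiredoxins (−5.19 ± 0.068), and FMP45, a membrane protein of the cell cortex (−4.66 ± 0.11). YOR338W, also uncharacterized, came at rank 5 (−4.56 ± 0.080).

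SPS100 (YHR139C), the spore wall gene, had values of 2.11 and 2.28 in DMSO and −2.11 and −2.22 in ebselen. Here too the groups were wide apart, and the gap between replicates was 0.18 in DMSO and 0.11 in ebselen. The means were 2.20 ± 0.13 and −2.16 ± 0.079 (SD, n = 2 each), which gave a log2 difference of −4.36 ± 0.082 (SE), 20.5-fold, at rank 6 of all falls. SPG4 and SPS100 could not be placed in order beyond their spread. Over the 4 pairings of an ebselen with a DMSO array, the log2 difference ran from −4.82 to −4.42 for SPG4 and from −4.50 to −4.21 for SPS100, and these ranges overlap. Quantile normalization of the centred values, which pulls in the extremes, gave −3.54 for SPG4 and −3.40 for SPS100.

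YGP1 (YNL160W), the relative of SPS100, had values of 0.29 and 0.34 in DMSO and −0.37 and −0.29 in ebselen. It was low in both ebselen arrays, with replicates within 0.08 of each other in either group. The means were 0.32 ± 0.035 and −0.33 ± 0.058 (SD, n = 2 each), and the log2 difference was −0.65 ± 0.058 (SE), or 1.57-fold. The difference of SPS100 therefore exceeded that of its relative by 3.71 on the log2 scale, and their array pairings did not overlap (−0.72 to −0.58 for YGP1). A fall larger than that of YGP1 was seen in 15.6% of all genes.

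SPG1 (YGR236C), which is needed for survival of heat in stationary phase, had values of 0.26 and 0.19 in DMSO and −0.50 and −0.19 in ebselen. Both ebselen arrays were lower than both DMSO arrays, and ebselen replicate 1 was the lower by 0.31, a gap close to the 0.32 between the same arrays for SPG4. The mean was 0.22 ± 0.048 in DMSO and −0.34 ± 0.22 in ebselen (SD, n = 2 each). The resulting log2 difference of −0.57 ± 0.11 (SE), 1.48-fold, moved to −0.41 without ebselen replicate 1 and to −0.72 without ebselen replicate 2.

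SPG5 (YMR191W), the proteasome-associated protein, had values of 0.13 and 0.22 in DMSO and −0.21 and −0.13 in ebselen. The groups did not overlap, but they were separated by less than in any other member. Its means were 0.17 ± 0.060 and −0.17 ± 0.055 (SD, n = 2 each), a log2 difference of −0.34 ± 0.061 (SE) or 1.27-fold. In the order of differences, YGP1, SPG1 and SPG5 followed SPS100, and the neighbours in that order, YGP1 with SPG1 and SPG1 with SPG5, overlapped in their array pairings (−0.76 to −0.38 for SPG1 and −0.42 to −0.26 for SPG5).

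SPG3 (YDR504C) ran the other way, with values of −0.27 and −0.17 in DMSO and 0.17 and 0.31 in ebselen. It was the member that was higher in both ebselen arrays. The means were −0.22 ± 0.068 and 0.24 ± 0.10 (SD, n = 2 each), and the log2 difference was 0.46 ± 0.073 (SE), or 1.38-fold higher. A larger rise was seen in 18.7% of all genes. Its rise depended on the scaling of the arrays. With the arrays scaled on their hybridization controls the difference of SPG3 was −0.0002 and SPG3 was not called. The median of all genes moved from −0.03 to −0.50. The same scaling gave −0.81 for SPG5, −1.03 for SPG1 and −1.11 for YGP1, and the small differences of these genes thus stand relative to a typical gene. In the methods' t-test, adjusted by Benjamini-Hochberg, SPG1, SPG3 and SPG5 were not called.

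Probe sets for fission yeast (Schizosaccharomyces pombe), an organism that was not cultured, gave a measure of how far probe sets differ between these arrays without a matching transcript. Their differences ran from −0.55 to 0.77 over 1747 probe sets, with a median of 0.07. The differences of SPG4, SPS100, YGP1 and SPG1 lay below the lowest of them, that of SPG1 by little (−0.57). Without ebselen replicate 1, SPG1 was at −0.41, within their range. For SPG5, 18 probe sets (1.03%) were as low or lower, and for SPG3, 90 (5.15%) were as high or higher. In either direction, 7 probe sets were as far from 0 as YGP1, 30 as SPG1, 93 as SPG3 and 207 as SPG5. For SPG4 and SPS100 this count was 0. The ebselen and DMSO arrays did not overlap in 42.5% of the S. pombe probe sets. The array's yeast control transcripts, probed at both ends, lost 5′ relative to 3′ signal in ebselen: the log2 change averaged −0.75 ± 0.26 over 8 transcripts (SD) and was negative in all 8. That difference lies between the same arrays as the gene differences, and the design does not allow the 2 to be told apart.

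**Figure D2:**
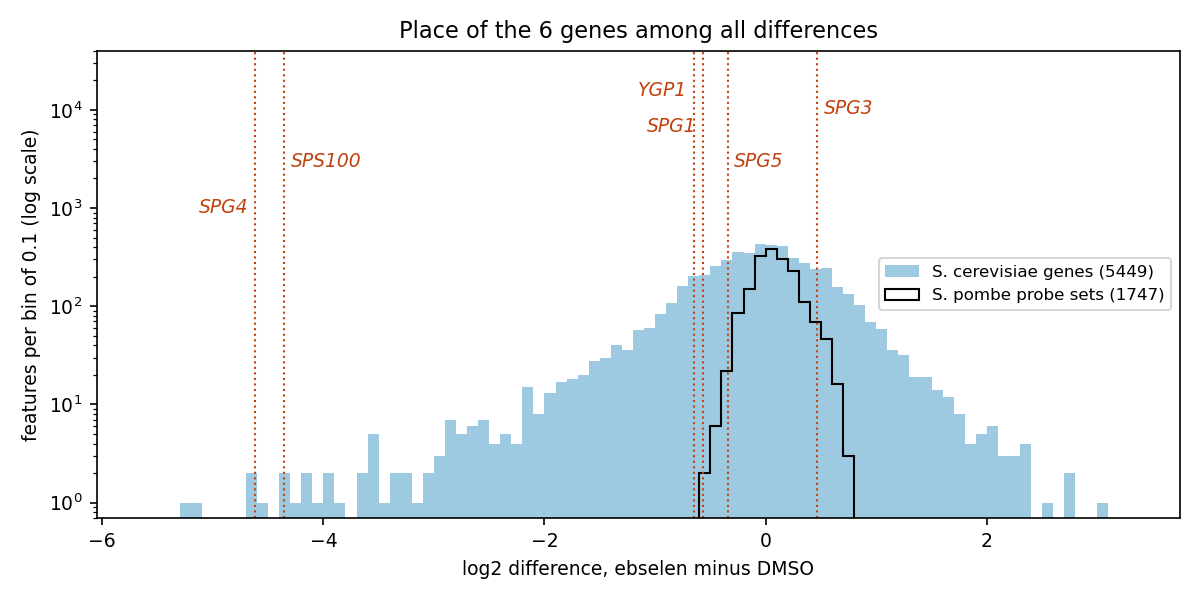
Number of features per bin of 0.1 (y axis, log scale) by log2 difference between ebselen and DMSO (x axis) for 5449 S. cerevisiae genes (blue) and 1747 S. pombe probe sets (black outline), with the 6 genes marked by dotted lines. SPG4 and SPS100 stand in the far lower tail, at ranks 4 and 6, and SPG3 and SPG5 within the range of the S. pombe probe sets (−0.55 to 0.77).

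The genes whose values over the 4 arrays were most like each member were found by Euclidean distance on the log2 scale. For SPG4 these were FMP45 (distance 0.32), TSA2, a stress-induced peroxiredoxin (0.32), and YOR338W (0.34). For SPS100 they were YKL070W, a reading frame of unknown function (0.25), TSA2 (0.29) and YOR338W (0.33), so TSA2 and YOR338W stood near both. Few genes came as close as 0.5 to either, 5 for SPG4 and 9 for SPS100. The other members had company: 1705 genes lay within 0.5 of SPG1, 1824 of YGP1, 2312 of SPG3 and 2807 of SPG5. Nearest to YGP1 were ATG36, the pexophagy receptor (0.012), ALP1, an arginine permease (0.027), and MPA43 (0.029). Nearest to SPG1 were CSE2, a Mediator subunit (0.054), IKS1, a putative kinase (0.055), and WHI4, an RNA-binding protein (0.065). SUS1, of the SAGA and mRNA export complexes (0.028), THI22 (0.029) and GAP1, the general amino acid permease (0.031), were closest to SPG5. SLY41, of transport between endoplasmic reticulum and Golgi (0.033), RTP1 (0.046) and SEC23, a coat protein of vesicles leaving the endoplasmic reticulum (0.053), were closest to SPG3. With 4 arrays in 2 groups, this likeness is mostly a like difference between the groups.

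The members lie at 6 separate places in the genome, and their neighbours on the chromosome (the next protein-coding gene on either side in the RefSeq R64 table) were looked up. Of 12 such neighbours 10 had a probe set, of which 4 rose and 4 fell in limma with Benjamini-Hochberg adjustment, against 71.7% of all genes called in either direction. Among those called, 5 differed in the same direction as the member beside them and 3 in the opposite one. Next to SPS100 on the same strand, YHR138C, which encodes a relative of a vacuolar proteinase inhibitor, had values of 1.03 and 0.92 in DMSO and −0.95 and −0.92 in ebselen. It fell 3.74-fold (−1.90 ± 0.061 (SE), limma adjusted p = 2.58e-05), the largest change among the 10. An annotated antisense RNA, SUT169, overlaps SPS100 and was not analysed here. ILV2, the next gene on the strand of SPG4 and an enzyme of branched-chain amino acid synthesis, fell by much less than SPG4 (−0.28 ± 0.061, limma adjusted p = 0.00989), and missed the threshold without DMSO replicate 1 and in the methods' t-test.

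Both neighbours of SPG1 fell: MIC26, of the mitochondrial inner membrane organizing complex, by 1.77-fold (−0.82 ± 0.049, limma adjusted p = 0.00012) and YGR237C by 1.57-fold (−0.65 ± 0.066, adjusted p = 0.000614). The values of MIC26 were 0.41 in each DMSO array and −0.41 in each ebselen array. Around SPG3, LPP1, a lipid phosphatase, rose 1.61-fold (0.68 ± 0.064, limma adjusted p = 0.000458; 0.22 and not called with scaling on the hybridization controls). On the other side, the coding sequence of PSP1 ends directly where that of SPG3 begins, on the same strand. PSP1 had values of −0.09 and 0.23 in DMSO and −0.10 and 0.09 in ebselen, so its groups overlapped, and it did not pass (−0.07 ± 0.12, limma adjusted p = 0.638). Whether the SPG3 probe set also reads the end of the PSP1 transcript was not tested.

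Beside SPG5 and YGP1 the neighbours differed in the opposite direction or did not pass the test. SGS1, the RecQ helicase upstream of SPG5 on the opposite strand, rose (0.44 ± 0.060, limma adjusted p = 0.00171), although with scaling on the hybridization controls its difference was −0.03. GYL1, of polarized secretion, was called higher (0.24 ± 0.077, adjusted p = 0.0386), with −0.23 on that scaling, and its call was lost in 8 of 12 other fits, that one included and also those without DMSO replicate 1, DMSO replicate 2 or ebselen replicate 1. CBK1, the kinase of cell separation that lies before YGP1, was also called higher (0.26 ± 0.056, limma adjusted p = 0.00901), with −0.20 on that scaling, and lost its call without DMSO replicate 2. ASI2, of the inner nuclear membrane, did not pass (−0.06 ± 0.051, adjusted p = 0.304). Of the neighbours that were called, ILV2, LPP1, SGS1, GYL1 and CBK1 lay within the range of the S. pombe probe sets (−0.55 to 0.77). YHR138C, MIC26 and YGR237C lay below that range.

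**Figure D3:**
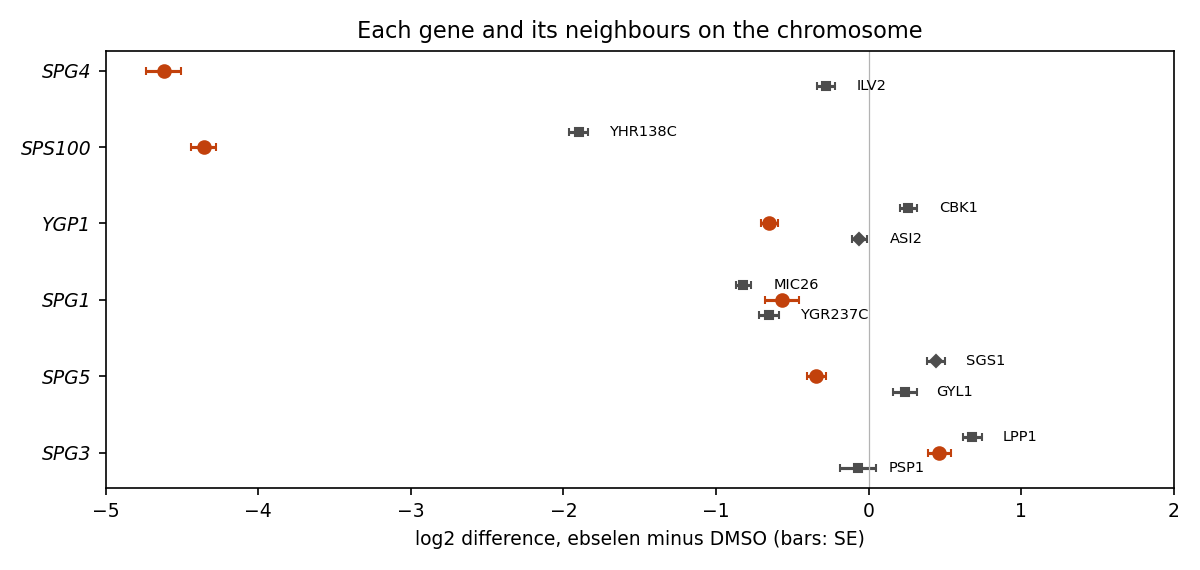
Log2 difference between ebselen and DMSO (x axis) of the 6 genes (orange circles) and of their neighbours on the chromosome with a probe set (grey squares on the same strand, diamonds on the opposite strand). Bars are limma's SE (n = 2 arrays per group). YHR138C beside SPS100 fell by 1.90, and the next largest difference among the neighbours was −0.82, for MIC26.

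Other transcripts used as markers of the diauxic shift or stationary phase were lower in ebselen almost throughout. Of 30 such genes outside the 6, 29 fell and 0 rose in limma with Benjamini-Hochberg adjustment (38.8% of all genes fell). Their median log2 difference was −2.85. This list and those below were chosen with earlier results of these data known, so their counts are a description. Every difference in the list was below 0, the highest at −0.30, so no test of them could call a rise. The methods' t-test called 28 lower. FMP45 (values of 2.22 and 2.49 in DMSO and −2.39 and −2.22 in ebselen) and HSP26, a small heat shock protein (2.01 and 2.12 against −2.28 and −2.01), fell most, by 25.2-fold and 18.4-fold (limma adjusted p of 1.27e-05 and 1.32e-05). The gene that missed the threshold was PRB1, a vacuolar protease named after its value was seen (−0.33 ± 0.12, adjusted p = 0.0508). SPG4 and SPS100 lay at the lower end of this range, with FMP45 alone below SPG4. YGP1 lay near its upper end: 27 of the 30 had larger falls, and the 3 with smaller ones, named after their values were seen, were PRB1, SED1, a cell wall protein (−0.32 ± 0.054), and SSA3, a stress-induced chaperone (−0.30 ± 0.050). The difference of SPG5 (−0.34) was close to those of these 3, and no gene of the list was as high as SPG3.

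Genes that govern entry into stationary phase went in both directions, as did the genes of the whole array. The list held 20 genes, among them kinases, phosphatase subunits and transcription factors. Of these 20 genes, 10 fell and 6 rose in limma with Benjamini-Hochberg adjustment (38.8% and 33.0% of all genes). The median of the list was −0.12. XBP1, a repressor induced by stress and starvation, fell 2.76-fold (−1.46 ± 0.14, limma adjusted p = 0.000468), with values of 0.59 and 0.86 in DMSO and −0.90 and −0.59 in ebselen. RPH1, a histone demethylase and repressor, fell 2.18-fold (−1.12 ± 0.063, adjusted p = 0.000102). TOR1, a kinase of the growth-promoting TOR complex, rose 2.38-fold (1.25 ± 0.072, adjusted p = 0.000107), and SCH9, a kinase that acts below it, rose 1.70-fold (0.77 ± 0.057, adjusted p = 0.000223).

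Among the activators of stress and stationary-phase genes, MSN4 fell (−0.77 ± 0.079, limma adjusted p = 0.000642), with values of 0.31 and 0.46 in DMSO and −0.45 and −0.31 in ebselen. MSN2, which binds the same promoter element, was called higher (0.37 ± 0.064, limma adjusted p = 0.00427), but with scaling on the hybridization controls its difference was −0.10, and neither that fit nor the methods' t-test called it. RIM15, the kinase that sets up the quiescence programme, fell (−0.62 ± 0.050, adjusted p = 0.000281). GIS1, an activator below Rim15, did not pass (0.06 ± 0.051, adjusted p = 0.346; −0.41 on the hybridization controls), nor did IGO2, PHO85 and SNF1, named after their values were seen (−0.01, −0.0046 and −0.07). On that scaling the 6 rises became 2, those of TOR1 and SCH9. The 10 falls became 14, with GIS1, IGO2, PHO85 and SNF1 among them.

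SPS100 takes its name from sporulation, and a list of other spore wall and sporulation genes was set beside it. Of 39 spore wall and sporulation genes, 25 fell and 8 rose in limma with Benjamini-Hochberg adjustment (38.8% and 33.0% of all genes), with a median of −0.48. LOH1, needed for an intact spore wall, fell 6.42-fold (−2.68 ± 0.20, limma adjusted p = 0.000207), with values of 1.19 and 1.20 in DMSO and −1.19 and −1.79 in ebselen, and was the single gene of this list past 4-fold, as 1.71% of all genes were. CDA1, a chitin deacetylase of the spore wall, fell 3.30-fold (−1.72 ± 0.12, adjusted p = 0.000174). In the other direction SPS4, a sporulation-induced gene, rose 3.10-fold (1.63 ± 0.068, adjusted p = 4.85e-05) and GAS2, a glucan transferase of the spore wall, 1.59-fold (0.67 ± 0.064, adjusted p = 0.000493). With scaling on the hybridization controls SPS4 was the 1 gene of the list that rose. The list does not hold SPS100 itself, whose log2 difference of −4.36 was lower than that of any of the 39. SPS100 was chosen with its large fall known, at rank 6 of all genes, so this order is no result about spore genes.

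Genes of the proteasome, the complex that Spg5 is known to bind, were lower almost throughout, with log2 differences from −0.98 to 0.04. Of 37 genes for its subunits, partners and regulation, 36 fell and 0 rose in limma with Benjamini-Hochberg adjustment (38.8% of all genes fell). The median of the list was −0.52, against −0.34 for SPG5, and both lie within the range of the S. pombe probe sets (−0.55 to 0.77). Only the difference of RPN2 was above 0, so the count of 0 rises adds nothing to the count of falls. The methods' t-test called 31 lower. RPN5, a lid subunit, had values of 0.53 and 0.47 in DMSO and −0.50 and −0.47 in ebselen (−0.98 ± 0.053, limma adjusted p = 8.81e-05). RPN11, the deubiquitinase of the lid, fell 1.97-fold (−0.98 ± 0.068, adjusted p = 0.000178). RPN2, named after its value was seen, did not pass (0.04 ± 0.073) but was called lower with scaling on the hybridization controls (−0.43).

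**Figure D4:**
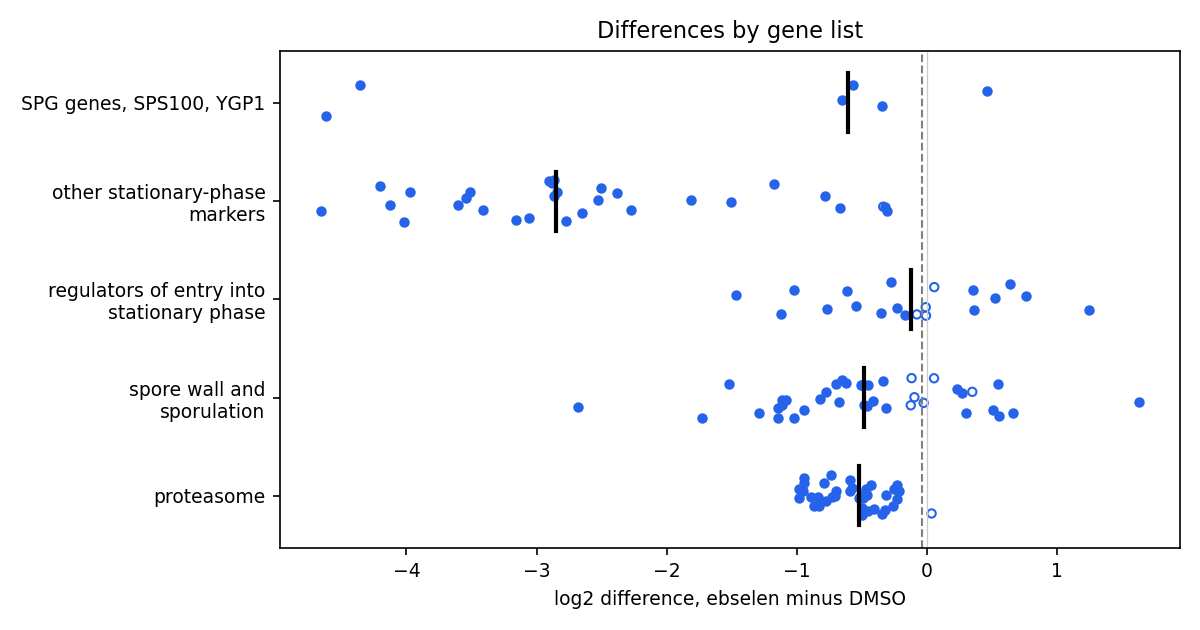
Log2 difference between ebselen and DMSO (x axis) of the 6 genes and of the genes in 4 lists (rows; vertical spread within a row is arbitrary). Filled points passed limma's test and open points did not, black bars are medians, and the dashed line is the median of all genes (−0.03). The other stationary-phase markers have a median of −2.85, the proteasome genes −0.52.

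For the 6 genes the ebselen and DMSO arrays did not overlap, so leaving out 1 array could change the size of a difference but not its direction. Without 1 array, SPG4 ranged from −4.78 to −4.46, SPS100 from −4.45 to −4.27, YGP1 from −0.69 to −0.61, SPG5 from −0.39 to −0.30 and SPG3 from 0.39 to 0.54. Centring on the S. pombe probe sets gave −4.69 for SPG4 and 0.40 for SPG3, and centring each array on its median gave −4.59 and 0.50.

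**Figure D5:**
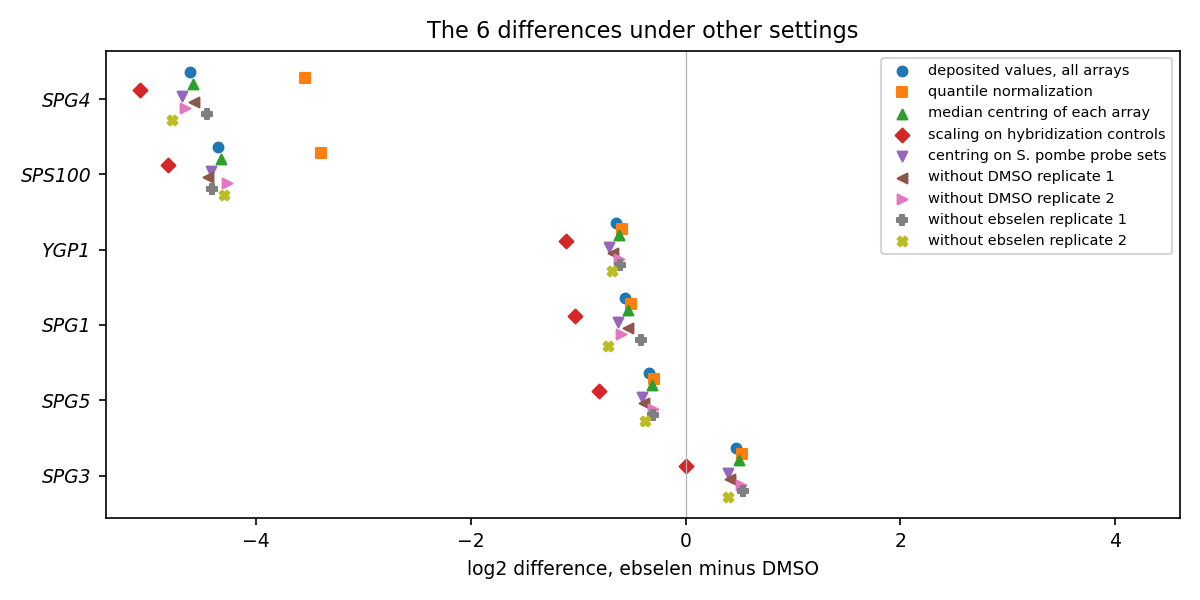
Log2 difference between ebselen and DMSO (x axis) of each of the 6 genes under 9 settings (symbols; vertical offsets only separate the symbols). SPG4 and SPS100 stay at or below −3.40 throughout, and SPG3 is at −0.0002 with scaling on the hybridization controls and above 0 otherwise.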

How the data were processed

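Arrays were Affymetrix GeneChip Yeast Genome 2.0, hybridized with RNA labelled from its poly-A end, per the labels' protocols. The authors normalized with RMA (per the submitters' processing notes) in a workflow with GeneSpring 7.2 (per the design text). Values as deposited are taken as log2; the sources used here do not state the base, on which every fold rests. Probe sets are centred at a median of 0 across the 4 arrays (to within 5e-07), so absolute levels are unknown. Array medians were −0.0132 and −0.0143 (DMSO) and 0.0124 and 0.0166 (ebselen).

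The platform annotation gave 1 gene symbol to 7244 of 10928 probe sets, several to 1 and none to 3683. A RefSeq table (R64, for names and neighbours) placed 5498 probe sets on 5449 genes, averaged by gene, and 1747 other annotated ones were taken as S. pombe. The files name no build, so no coordinates are given. Genes were fitted in limma 3.58.1 (R 4.3.3) with group as the only term, two-sided, on 2 residual and 3.13 prior degrees of freedom. On simulated data with 5449 genes the fit recovered 15.1% of changes of 0.3 on the log2 scale, 74.2% of 0.5 and 95.2% of 1. There a small share of the genes was shifted, all upward, with noise drawn from the fit's own prior. In the deposited values 71.7% of genes were called, so these rates need not hold for them. The number of arrays limits the precision.

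The members and lists were chosen with earlier results of these data known. Named were the members, the 3 genes nearest to each, chromosome neighbours, the 2 largest called rises and falls of each list with groups that do not overlap, the 5 largest falls of all and 5 regulators (MSN2, MSN4, GIS1, RIM15, XBP1). Alternatives were other scalings, tests and thresholds, a replicate block and each array left out.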

Additional observations from a re-analysis of the deposited data

How the results depend on the processing

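With scaling on the hybridization controls, which moved the median of all genes to −0.50, the calls numbered 492 rises and 3659 falls, where the deposited values gave 1796 and 2113 (11.9% rises among the calls, against 45.9%). In that limma fit the adjusted p followed the size of the difference, whatever the SE of the gene in the deposited values. Calls on the hybridization controls thus differ from the others in the error used as well as in the shift. On that scaling 2 regulators and 1 sporulation gene rose, against 6 and 8, and the difference of SPG3 shrank to −0.0002. With a minimum difference of 1 on the log2 scale, 228 genes were called higher and 412 lower, and the lists held 1 rise and 3 falls (regulators), 1 rise and 10 falls (sporulation) and 0 falls (proteasome). All other counts of calls, over all genes and in the 4 lists, stayed within 1.5 times under the methods' t-test, quantile normalization, median centring, centring on the S. pombe probe sets, all probe sets in one fit, the stricter threshold of 0.01, robust eBayes and each array left out. The methods' t-test, adjusted by Benjamini-Hochberg, called 1233 genes higher and 1410 lower. The causes of these changes were not tested. Each of the 6 genes has 1 probe set, so no fit by probe set was run. The labels do not tie equal replicate numbers to a shared batch, and the replicates' deviations had a correlation of −0.075 over genes. With the replicate number as a block, 1670 genes were called higher and 1971 lower, all 6 members kept their calls, and no count in the lists moved by over 1.5 times.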
